A study of Mus musculus with 6 samples.

Results

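Slco4c1, Ildr1, Iqsec3, Pm20d2, Klhl34, Shisa3 and Inpp5j were 7 genes with no part in the contractile apparatus whose transcripts stood more than 4-fold lower in the tibia of Col1a1+/- mice than of wild-type mice. They were selected on that genotype difference, measured in the same 6 libraries, out of 56748 genes counted and 18514 genes with enough reads to be tested. Their fold change between genotypes is therefore a description without a test. The question asked of them was whether each followed the genes of slow or of fast muscle fibres from library to library.

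The samples were tibiae of female mice aged 12 weeks, 3 heterozygous for Col1a1, the gene of the alpha 1 chain of type I collagen, and 3 wild type. The series title presents these mice as a model of osteogenesis imperfecta type I, the mild form of brittle bone disease. It also names treatment against TGF-β, but the labels give no treatment for any of the 6 samples. They give neither the strain nor the nature of the Col1a1 allele, and do not state that each sample was a separate animal. Marrow was flushed from each bone before it was frozen and ground, and polyadenylated RNA was sequenced to a depth of 26830644 to 32379684 counted reads.

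Skeletal muscle fibres come in slow and fast types. Slow fibres use a slow set of myosin, troponin and calcium-store proteins and rely on oxidative metabolism, and they are dense in postural muscles such as the soleus. Fast fibres use another set and contract more quickly, and among them the fibres with the myosin Myh2 are the more oxidative. Both kinds lie next to the tibia and share Acta1, Ckm and other general muscle genes.

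All 6 libraries held bone and muscle transcripts. Ibsp, a bone matrix protein gene made by osteoblasts, stood between 2461 and 6079 CPM (counts scaled to the size of each library). A list of 16 further muscle genes, called shared here although it includes Myh2, a myosin of fast fibres, took 2.38% to 3.56% of counts in wild type and 0.713% to 1.46% in Col1a1+/-. Without Myh2 these shares were 2.31% to 3.34% and 0.703% to 1.41%. A list of 8 neutrophil genes took 0.553% in wild-type replicate 1 and 0.0929% to 0.154% in the other 5 libraries. A list of 10 osteoblast genes went the other way, with 0.71% to 0.88% of counts in wild type and 1.37% to 1.56% in Col1a1+/-, and 5 of the 10 rose by edgeR. A list of 9 cartilage cell genes took 0.251% to 0.346% in wild type and 0.567% to 0.702% in Col1a1+/-, and 4 of the 9 rose. Of all tested genes, 1.43% rose by edgeR. No gene was called higher when wild-type replicate 3 or Col1a1+/- replicate 1 was left out. The part of either list in the levels of the 7 genes was not tested. In whole tissue, fewer muscle fibres in a sample and less RNA per fibre cannot be told apart. The counts do not tell how much muscle was left on each bone.

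Of the 2 fibre types, the slow fibre genes had the larger differences between the genotypes. Of 9 slow fibre genes, 2 fell by edgeR's quasi-likelihood test (Myl2 and Tnni1, slow forms of a myosin light chain and of troponin I; adjusted p = 0.0396 and 0.0471), and all 9 had an unadjusted p below 0.05 (9 fell by DESeq2). Their median log2 fold change was -4.28. Of 12 fast fibre genes, 4 fell (Mybpc2, Actn3, Myl1 and Tnnc2; 11 by DESeq2), with a median of -1.35. Over all tested genes the median was -0.01, and 2.91% of them were called lower and 1.43% higher. Of all 18514, 2453 were lower and 1775 higher at an unadjusted p below 0.05, and DESeq2 called 1468 lower and 788 higher. The edgeR calls depended on single libraries, with 19063 to 19225 genes tested when 1 was left out. The 538 lower and 265 higher genes became 1172 and 594 without wild-type replicate 1, 7 and 1 without replicate 2, and 0 and 0 without replicate 3 (1874 and 1365 at an unadjusted p below 0.05). Without Col1a1+/- replicate 1 they were 0 and 0 (1785 and 1490 unadjusted), without replicate 3 they were 12 and 32, and without replicate 2 the higher genes were 168.

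The ratio of slow to fast fibre reads was 0.00942, 0.0105 and 0.0249 in wild-type replicates 1, 2 and 3 and 0.00349, 0.00345 and 0.00155 in the Col1a1+/- replicates. Every wild-type library lay above every Col1a1+/- library. The means were 0.0149 ± 0.00867 and 0.00283 ± 0.00111 (SD, n = 3 each), a 5.27-fold difference with an exact two-sided permutation p = 0.1, the smallest that 3 samples against 3 allow.

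**Figure D1:**
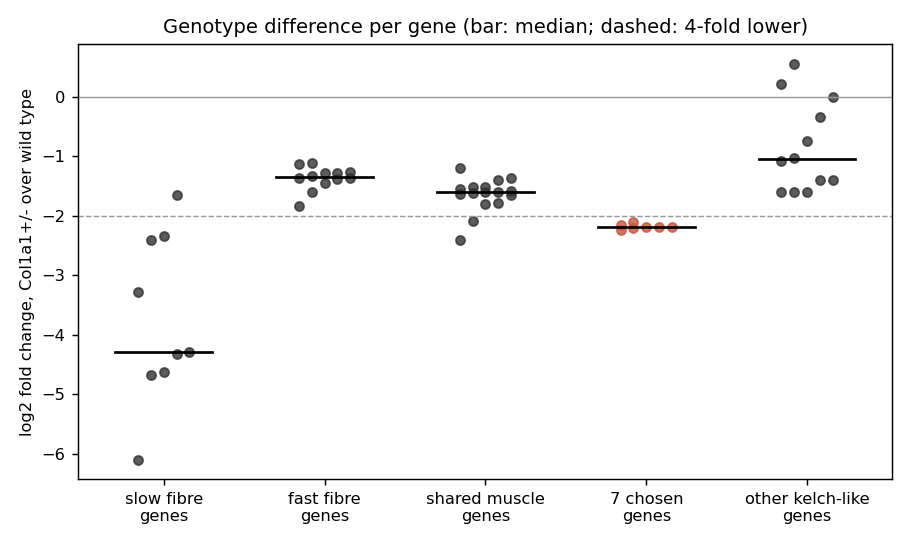
Genotype difference per gene, as the log2 fold change of Col1a1+/- over wild type, for 9 slow fibre, 12 fast fibre and 16 shared muscle genes, the 7 chosen genes and 12 other kelch-like genes. Each point is a gene, bars are medians, and the dashed line marks 4-fold lower. The chosen genes lie in a narrow band from -2.25 to -2.10, below each of the 12 genes of the fast fibre list and above all slow fibre genes except Casq2. Myh2, plotted with the shared muscle genes, lies lower than the 7 genes, at -2.41.

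The 7 genes had log2 fold changes between -2.25 and -2.10, between those of the 2 fibre lists. None of the 12 genes of the fast fibre list was as low. The lowest was Tnnc2 (-1.84), at only 1.06 to 6.88 CPM and with 74% of its exon length opposite Ube2c, followed by Myh1 (-1.59). Myh2, a fast fibre myosin gene kept outside that list, was lower than all 7 (-2.41), and 8 of the 9 slow fibre genes were lower, all but Casq2 (-1.66). In each of the 7 genes the highest Col1a1+/- library lay below the lowest wild-type library, as it did for 14.5% of all tested genes. The rule that chose the genes made both facts likely, so nothing is read from them.

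Of 85 tested genes at more than 4-fold lower, 18 were called, and 14 of those had a mean of at least 1 CPM and a symbol. Besides the 7 genes these were Myl2, Tnni1, the transcript AC138228.2, and Barx2, Tmem266, Fgf6 and Myo5b, which met the same fold without being among the 7. The gene just inside the threshold among the 7 was Inpp5j (4.29-fold lower, 3.87 against 0.892 CPM). The called gene just outside was Snai3, a gene of a Snail-type repressor (3.96-fold lower, 1.69 against 0.427 CPM).

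All 7 genes passed the filter on low counts, but their reads were few, from 10 to 476 per library. Levels scaled by both exon length and sequencing depth (RPKM) allow genes to be compared. In wild type the RPKM means ran from 0.137 ± 0.0628 for Iqsec3 to 5.68 ± 2.65 for Klhl34 (SD, n = 3 each), with Pm20d2 at 2.23 ± 1.25 and the other 4 between 0.606 and 0.946. The spreads of those 4 overlap.

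Klhl34 encodes a kelch-like protein, a family whose members usually act as substrate adaptors of cullin 3 ubiquitin ligases. The gene (ENSMUSG00000047485) lies on chromosome X, 156601431 to 156603365, GRCm39, plus strand, and its 1935 bases of exon form 1 block. It stood at 6.35, 10.1 and 16.5 CPM in wild-type replicates 1, 2 and 3 and at 2.34, 3.6 and 1.27 CPM in the Col1a1+/- replicates. Wild-type replicate 3 was highest and replicate 1 lowest in wild type, and replicate 2 was highest and replicate 3 lowest in Col1a1+/-. That is the order of both fibre scores in each genotype. Wild type averaged 11.0 ± 5.12 CPM and Col1a1+/- 2.40 ± 1.17 CPM (SD over 3 libraries each), 4.57-fold lower in Col1a1+/- (log2 fold change -2.19, SE 0.46).

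Pm20d2 encodes a peptidase that splits beta-alanyl dipeptides formed as by-products of carnosine synthesis, carnosine being a dipeptide abundant in muscle. The gene (ENSMUSG00000054659) lies on chromosome 4, 33174230 to 33189737, GRCm39, minus strand, with 7 exon blocks. Its level was 2.54, 3.01 and 6.72 CPM in the wild-type replicates and 0.809, 1.22 and 0.636 CPM in the Col1a1+/- replicates. The order of the libraries was that of Klhl34. Wild-type replicate 3 alone stood well above its group, so that the wild-type mean of 4.09 ± 2.29 CPM had a wide spread, against 0.889 ± 0.302 in Col1a1+/- (SD, n = 3 each; log2 fold change -2.20, SE 0.44).

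Iqsec3 encodes an exchange factor that loads the small GTPase Arf6 with GTP and is best known at inhibitory synapses of the brain. It lies on chromosome 6, 121349892 to 121450637, GRCm39, minus strand, with 13577 bases of exon in 15 blocks. Its values were 1.15, 1.63 and 2.81 CPM in wild type and 0.3, 0.559 and 0.353 CPM in Col1a1+/-, the latter from 10 to 16 reads. Wild type had the order of the fibre scores, and in Col1a1+/- replicate 2 was again highest. The log2 fold change was -2.20 (SE 0.46).

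Shisa3 encodes a membrane protein of a family known for holding back Wnt and FGF receptors inside the cell. It lies on chromosome 5, 67765225 to 67780895, GRCm39, plus strand, and 2.9% of its exon length lies opposite Atp8a1, which the counting did not separate by strand. The libraries gave 2.91, 4.38 and 6.2 CPM in wild type and 0.479, 1.75 and 0.812 CPM in Col1a1+/-. Replicate 2 of Col1a1+/- was more than double replicate 3 and was the nearest of its group to wild type. The log2 fold change was -2.16 (SE 0.48).

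Inpp5j encodes a 5-phosphatase of inositol lipids that counters signalling by phosphatidylinositol 3-kinase. It lies on chromosome 11, 3444375 to 3454821, GRCm39, minus strand, with 7.88% of its exon length opposite Pla2g3. It stood at 2.91, 2.72 and 5.99 CPM in wild type and at 1.38, 0.874 and 0.424 CPM in Col1a1+/-. In Col1a1+/- the highest library was replicate 1, not replicate 2 in which both fibre scores were highest. The log2 fold change was -2.10 (SE 0.47).

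Ildr1 encodes angulin-2, a protein of the tight junctions where 3 epithelial cells meet, needed for hearing. It lies on chromosome 16, 36514340 to 36547166, GRCm39, plus strand, with 8 exon blocks. Its level was 2.05, 2.75 and 4.47 CPM in wild type and 0.899, 0.594 and 0.494 CPM in Col1a1+/-, where replicate 1 was highest, as for Inpp5j. The log2 fold change was -2.20 (SE 0.40). Of 8 keratinocyte genes, 5 (Krt5, Krt14, Krt1, Dsg3 and Dsp) had too few reads to be tested. The other 3 were Trp63 (log2 fold change -1.21; edgeR adjusted p = 0.0868), Krt10 (-0.28; 0.569) and Sfn (-0.07; 0.878). Trp63 had a slope of 0.45 on the slow fibre score described below (edgeR adjusted p = 0.189). The 8 genes together took 0.00156% to 0.00183% of counts in wild type and 0.00124% to 0.00143% in Col1a1+/-. Whether epithelial RNA has a part in the level of Ildr1 was not tested.

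Slco4c1 encodes an organic anion transporter known from the kidney, where it carries digoxin and thyroid hormone. It lies on chromosome 1, 96743995 to 96799896, GRCm39, minus strand, with 13 exon blocks. It was at 4.93, 1.74 and 2.25 CPM in wild type and at 0.479, 0.978 and 0.424 CPM in Col1a1+/-. Wild-type replicate 1 was the highest library here and the lowest of its genotype for Klhl34, Pm20d2, Iqsec3, Shisa3, Ildr1 and both fibre scores. Of the fast fibre list, Myh4 (12170, 8028 and 9869 CPM in wild type) and Mybpc2 (1510, 1236 and 1414) were also highest in wild-type replicate 1. Within Col1a1+/- both were highest in replicate 2, as Slco4c1 was. No other gene of that list was highest in wild-type replicate 1. The log2 fold change was -2.25 (SE 0.50) with all libraries and -1.64 without wild-type replicate 1.

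**Figure D2:**
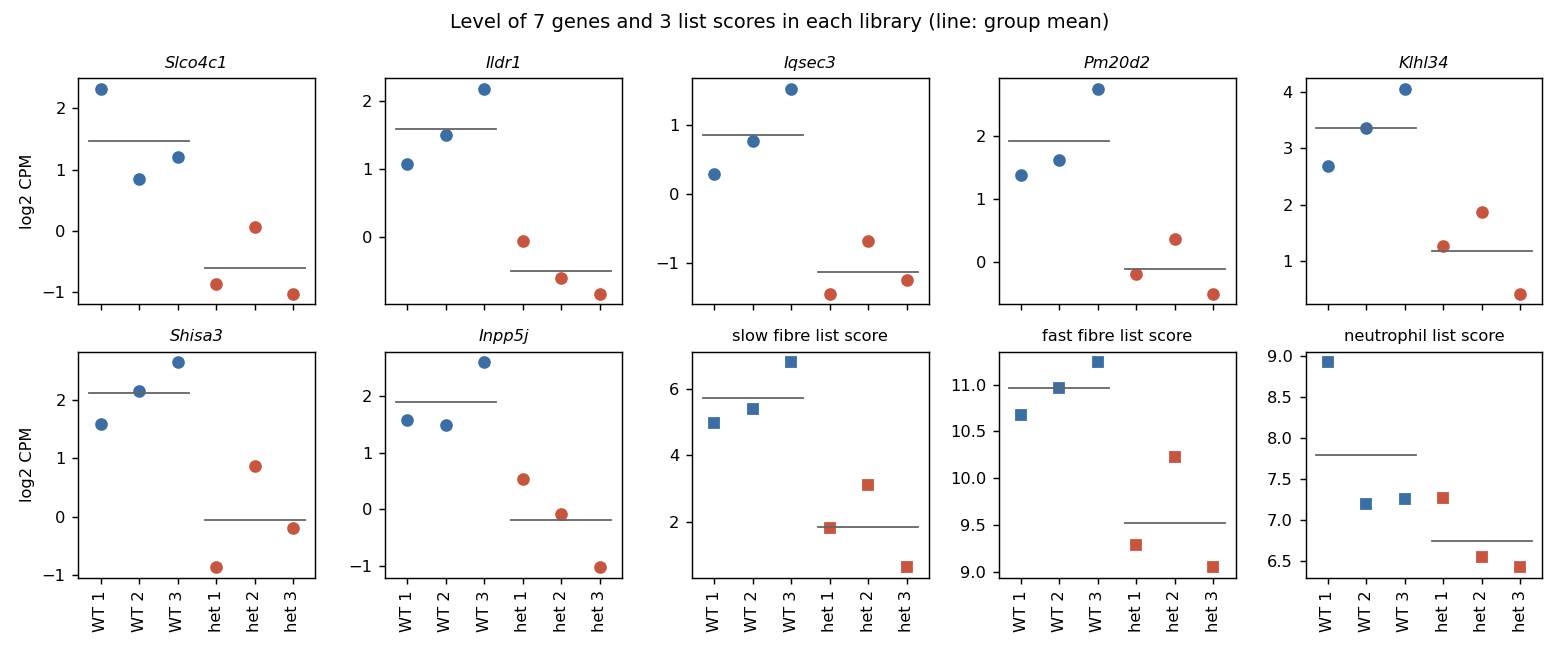
Level of each of the 7 genes in the 6 libraries (circles, log2 CPM) beside the slow fibre, fast fibre and neutrophil list scores (squares, mean log2 CPM of the list). Blue marks wild type (WT), red marks Col1a1+/- (het), and lines are group means. Slco4c1 is highest in wild-type replicate 1, where the neutrophil score is also highest, whereas the other 6 genes are highest in wild-type replicate 3. Myh4 and Mybpc2 of the fast fibre list, not plotted singly, are also highest in wild-type replicate 1.

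To ask what the genes followed apart from genotype, each library's fibre score (mean log2 CPM of the list) was expressed as its deviation from its own genotype mean. A slope on that deviation was then fitted beside genotype for all 18514 genes. A slope of 1 means that a gene changes by as much as the score. These slopes use the differences among libraries of 1 genotype, and not the difference between genotypes on which the genes were chosen. The choice was not free of the spread within genotypes, since all 7 genes were among the 18 called of 85 genes over 4-fold lower, and genes such as Kbtbd12, Hspb7 and Ankrd2, with a like fold, were not called and are not among the 7. The slow score spanned -0.76 to 1.09 around its mean in wild type and -1.22 to 1.25 in Col1a1+/-, and the fast score -0.28 to 0.28 and -0.47 to 0.71. The libraries had the same order by both scores in each genotype, so from the order alone the fibre type a gene followed cannot be told apart.

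Klhl34 was the only one of the 7 genes whose slope on the slow score passed an adjusted p of 0.05. The slope was 0.63 (SE 0.11; edgeR adjusted p = 0.031), where 1.07% of all genes were called. Its slope on the fast score was 1.33 (SE 0.33; adjusted p = 0.147). The slow slope lay between 0.56 and 0.69 with any single library left out. Leaving out a library ended the edgeR call in 4 of 6 cases, namely wild-type replicate 3 (adjusted p = 0.384) and Col1a1+/- replicates 1 (0.0723), 2 (0.319) and 3 (0.261). The call was also lost with library totals (0.117) or a summed score (0.0613), and over all alternatives the adjusted p ran from 4.67e-05 to 0.384.

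For Pm20d2, Shisa3 and Inpp5j the slopes on the slow score were 0.57 (SE 0.16), 0.50 (SE 0.19) and 0.49 (SE 0.22), with edgeR adjusted p = 0.158, 0.337 and 0.433. With Klhl34, 4 of the 7 genes had a slow slope above 0 at an unadjusted p below 0.05, where 8.45% of all genes did. Of the 7, only Klhl34 did without wild-type replicate 3 (1206 of all 19123 tested genes, slopes of either sign). Without wild-type replicate 1 only Klhl34 and Pm20d2 did (2341 of all 19068, either sign). On the fast score 3 of the 7 did (Klhl34, Pm20d2 and Shisa3), where 7.11% of all genes did, and 0 passed after adjustment, where 0.805% of all genes were called (2 genes, Klhl34 and Shisa3, passed under another filter or tool, as given in the closing section). The fast slopes of Pm20d2 and Shisa3 were 1.14 (SE 0.45; adjusted p = 0.443) and 1.35 (SE 0.40; adjusted p = 0.252).

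Iqsec3 had slopes of 0.46 (SE 0.22; edgeR adjusted p = 0.481) on the slow score and 1.04 (SE 0.53; adjusted p = 0.596) on the fast score. For Ildr1 they were 0.33 (SE 0.21; adjusted p = 0.6) and 0.41 (SE 0.55; adjusted p = 0.863), and the fast slope of Inpp5j was 0.61 (SE 0.62; adjusted p = 0.818). In wild type Ildr1 had the order of the scores, whereas Inpp5j, also highest in replicate 3, had replicate 1 above replicate 2. Both had Col1a1+/- replicate 1 above replicate 2. With single libraries left out, the fast slope of Ildr1 lay between 0.025 (without wild-type replicate 3) and 2.18 (without Col1a1+/- replicate 2), and that of Inpp5j between 0.083 (without Col1a1+/- replicate 3) and 2.37 (without Col1a1+/- replicate 2). None of these slopes could be told from 0 after adjustment.

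Slco4c1 had a slope of 0.05 (SE 0.28; edgeR adjusted p = 0.967) on the slow score and 0.32 (SE 0.63; adjusted p = 0.909) on the fast score. Without wild-type replicate 1 they were 0.43 (adjusted p = 0.51) and 1.05 (adjusted p = 0.515). Without Col1a1+/- replicate 2 both turned below 0, to -0.35 and -1.82 (adjusted p = 0.888 and 0.471), and without Col1a1+/- replicate 3 the slow slope was -0.19. Its slope on the neutrophil score, fitted after the library values were seen, was 0.63 (SE 0.30; adjusted p = 0.381), where 1.11% of all genes were called above 0. That slope rested on wild-type replicate 1, without which it was -0.45 (adjusted p = 1). The part of neutrophil RNA in the level of Slco4c1 was not tested.

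**Figure D3:**
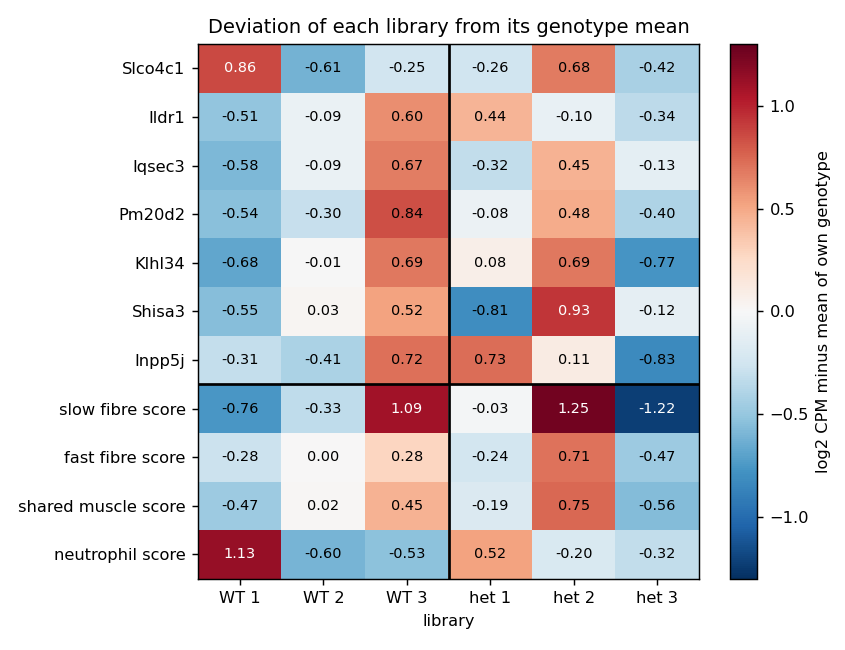
Deviation of each library from the mean of its own genotype, in log2 CPM, for the 7 genes (top) and 4 list scores (bottom), with red above and blue below the mean. Pm20d2 and Iqsec3 repeat the signs of the slow score in all 6 libraries, and Klhl34, Shisa3 and Inpp5j in 5 of 6. Slco4c1 has its highest value, 0.86, in wild-type replicate 1, where the slow score is at -0.76 and the neutrophil score at 1.13.

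In size, the slopes of most of the 7 genes lay nearer to the medians of the fast and shared muscle genes than to the median of the slow genes. A slope near 0, as for Slco4c1, is also nearer to the smaller medians. On the slow score the median slope was 1.03 over the 9 slow fibre genes, 0.44 over the 12 fast fibre genes and 0.43 over the 16 shared muscle genes, and 0.00 over all genes. On the fast score the medians were 2.2, 1.09 and 1.02 in the same order. Klhl34, Pm20d2, Iqsec3 and Shisa3 had slopes of 0.46 to 0.63 and 1.04 to 1.35. Casq2 of the slow fibre list had like slopes, at 0.50 and 1.01. Without Col1a1+/- replicate 2, the fast slopes of Klhl34, Pm20d2, Iqsec3 and Shisa3 were 1.42 to 2.59. Within the fast fibre list Myh1, the gene of myosin IIx, had the largest slopes, at 0.75 and 1.53, and those of Myh2, outside it, were 1.01 and 2.24. Myh4 had the smallest slopes of that list, at 0.10 and 0.35, beside 0.05 and 0.32 for Slco4c1. Without Myh2 the shared muscle medians were 0.42 and 0.97. List scores contain their own genes, so the slopes of list members are no independent test.

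Myh2, the myosin gene of the oxidative fast fibres, was taken as a further reference after its genotype difference was seen. It was at 623, 1639 and 2524 CPM in wild type and 227, 583 and 91.5 CPM in Col1a1+/-. Its log2 fold change of -2.41 (SE 0.80; edgeR adjusted p = 0.142) was close in size to those of the 7 genes. Against Myh2, Klhl34 had a slope of 0.60 (SE 0.10; adjusted p = 0.0129) and the other 6 genes passed no adjusted p of 0.05, where 2.82% of all genes were called. For Klhl34 that call ended when wild-type replicate 1 (adjusted p = 0.0501), wild-type replicate 3 (0.145) or Col1a1+/- replicate 2 (0.0741) was left out. Slco4c1 had a slope of -0.075 (SE 0.251; adjusted p = 0.928), which turned to 0.48 without wild-type replicate 1.

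**Figure D4:**
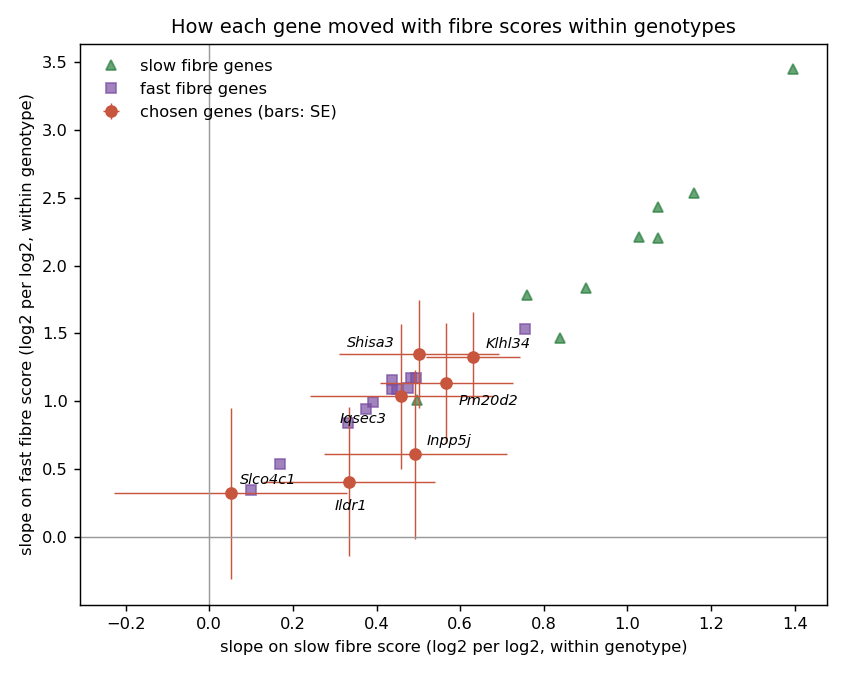
Slope of each gene on the slow fibre score (x axis) and on the fast fibre score (y axis) within genotypes, both in log2 units per log2 unit of the score. Red circles are the 7 genes with SE bars, green triangles the slow and purple squares the fast fibre genes. Most of the 7 genes lie among the fast fibre genes, where Casq2 of the slow fibre list also lies. Slco4c1 has the smallest slopes of the 7 (0.05 and 0.32), close to those of Myh4 of the fast fibre list (0.10 and 0.35).

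Ratios of reads set each gene against the muscle genes of the same library, without any scaling. Per 1000 reads of the 12 fast fibre genes, Klhl34 had 0.159, 0.229 and 0.296 reads in wild type and 0.156, 0.128 and 0.0947 in Col1a1+/-, so the wild-type libraries lay above the Col1a1+/- libraries by a small margin. The Col1a1+/- mean was 0.554 times that of wild type. Over the 7 genes this quotient lay between 0.484 (Slco4c1) and 0.64 (Inpp5j). Per slow fibre read it ran the other way, from 2.14 (Slco4c1) to 3.31 (Iqsec3). Per read of the shared muscle genes it was from 0.561 (Slco4c1) to 0.804 (Inpp5j). The low place of Slco4c1 in all 3 ranges rested on wild-type replicate 1. Without that library its quotients were 0.823 per fast, 4.91 per slow and 1.11 per shared muscle read, and it was the highest of the 7 genes in each. Inpp5j was at 0.388 per fast and 0.488 per shared muscle read without Col1a1+/- replicate 1. Per slow fibre read, Iqsec3 was at 2.01 and Shisa3 at 1.88 without Col1a1+/- replicate 3. Library by library, the genotypes overlapped per fast fibre read for Ildr1 and Inpp5j, per slow fibre read for Slco4c1 and Shisa3, and per shared muscle read for all except Iqsec3 and Shisa3. These ratios rest on the genotype difference that chose the genes and are a description.

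With the slow score itself as a covariate beside genotype, the log2 fold changes of 6 genes moved toward 0, to -0.86 for Ildr1, -0.39 for Iqsec3, 0.05 for Pm20d2, 0.22 for Klhl34, -0.26 for Shisa3 and -0.16 for Inpp5j. That of Slco4c1 stayed at -2.07. The fast score left -1.85 for Slco4c1, -1.58 for Ildr1, -1.19 for Inpp5j and -0.70 to -0.31 for the other 4. The genotypes did not overlap in either score (slow 4.96 to 6.8 against 0.63 to 3.1, fast 10.68 to 11.24 against 9.05 to 10.23). The parts of genotype and of muscle RNA therefore cannot be told apart between the groups.

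Likeness to other genes was measured as the root mean square difference of 2 profiles over the 6 libraries, in log2 CPM after subtracting each gene's mean. The libraries are shared by all genes and the genotype difference is part of each profile, so these values only describe. Nearest to Klhl34 were Hspb6 (0.20), a small heat shock protein gene of muscle, Fndc5 (0.21), the gene of the irisin precursor, and Ankrd2 (0.22), a gene of a stretch-responsive ankyrin protein rich in slow muscle. Pm20d2 was nearest to the muscle genes Nrap (0.17) and Alpk3 (0.22) and to Iqsec3 (0.19). Iqsec3 in turn was nearest to AC138228.2 (0.16), Pm20d2 (0.19) and Nos1 (0.19), the neuronal nitric oxide synthase gene that muscle fibres also use.

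Shisa3 was nearest to Hectd2os (0.27), Hspb7 (0.27) and Smtnl1 (0.30). Ildr1 had Adamts8 (0.22), Slc24a2 (0.23) and the potassium channel gene Kcna5 (0.25) as its neighbours, and Inpp5j had Slc24a2 (0.27), Ildr1 (0.29) and Rims4 (0.32). Slco4c1 was nearest to Kbtbd12 (0.19), another kelch family gene, Fgf6 (0.29), a growth factor gene of the muscle lineage, and Klhl38 (0.37). Kbtbd12 was at 36.3, 8.73 and 14.9 CPM in wild type and 3.69, 5.84 and 3 CPM in Col1a1+/-. Its highest libraries, wild-type replicate 1 and Col1a1+/- replicate 2, were those of Slco4c1.

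Within genotypes, 22 lists were set beside each gene by the same measure. For Klhl34 the shared muscle score was nearest, at 0.19, against 0.58 for a flat line, 0.29 for the fast and 0.37 for the slow score. For Iqsec3 and Pm20d2 the score of neuromuscular junction genes was nearest (0.17 and 0.20, against 0.43 and 0.50 for a flat line), followed among muscle lists by the shared muscle score at 0.25 for each. For Shisa3 the fast, shared muscle and neuromuscular junction scores were all at 0.32 (flat line 0.59). The slow score was farther than a flat line from Ildr1 (0.73 against 0.40), Inpp5j (0.63 against 0.58), Iqsec3 (0.61 against 0.43), Shisa3 (0.64 against 0.59) and Slco4c1 (0.96 against 0.56). The fast and shared muscle scores were also farther than a flat line from Ildr1 (0.47 and 0.45) and from Slco4c1 (0.57 and 0.67). The measure is not scaled, so a score that moves more than a gene can lie farther than a flat line although both move together. Iqsec3 and Shisa3, for example, had slow slopes of 0.46 and 0.50. The nearest list is therefore not always the list that a gene followed most closely. For Slco4c1 the tricellular junction list was nearest (0.44) and the neutrophil score was at 0.51, against 0.56 for a flat line. Ildr1 and Inpp5j were nearest to the score of Schwann cell genes (0.28 and 0.47). The shared muscle score was at 0.45 and 0.52, against 0.40 and 0.58 for a flat line.

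The promoters of 6 of the 7 genes, all but Inpp5j, were found in RefSeq on build GRCm38.p6. They were searched on both strands, over the 250 bases before the start, for the E-box CANNTG, the site of myogenic factors such as MyoD, for its form CAGCTG, and for the MEF2 motif. E-boxes were found in Slco4c1 (3), Ildr1 (1) and Klhl34 (1), and in 66.2% of all 32851 promoters. CAGCTG, which is a form of CANNTG, was found in Klhl34 alone of the 6 and in 13% of all promoters. The MEF2 motif was found in none of the 6 and in 2.92% of all. A match is a string of letters and not a bound site. The sequences of the genes with the largest, the next largest and the smallest slope on the slow score over all 6 libraries (Klhl34, Pm20d2 and Slco4c1) are shown 5′ to 3′, with E-boxes in capitals. Klhl34 is at chrX:157818185-157818434 (plus strand), Pm20d2 at chr4:33189738-33189987 (minus strand) and Slco4c1 at chr1:96872172-96872421 (minus strand).
Klhl34: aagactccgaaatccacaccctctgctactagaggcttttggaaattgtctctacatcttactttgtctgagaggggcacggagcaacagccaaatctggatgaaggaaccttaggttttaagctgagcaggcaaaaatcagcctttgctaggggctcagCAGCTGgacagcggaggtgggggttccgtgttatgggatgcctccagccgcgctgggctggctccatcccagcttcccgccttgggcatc
Pm20d2: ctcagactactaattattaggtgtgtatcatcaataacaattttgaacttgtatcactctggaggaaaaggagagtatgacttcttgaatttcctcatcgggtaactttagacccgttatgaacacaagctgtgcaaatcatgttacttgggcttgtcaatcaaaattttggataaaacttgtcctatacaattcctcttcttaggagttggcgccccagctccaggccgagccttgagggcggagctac
Slco4c1: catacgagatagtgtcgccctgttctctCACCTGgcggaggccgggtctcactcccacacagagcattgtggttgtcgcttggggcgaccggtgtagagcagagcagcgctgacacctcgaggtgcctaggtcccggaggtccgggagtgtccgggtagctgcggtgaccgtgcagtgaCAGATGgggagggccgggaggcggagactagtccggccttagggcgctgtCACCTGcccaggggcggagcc

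Relatives of the 7 genes were taken family by family, to see whether the genotype difference was shared. Of 12 other kelch-like genes, all tested, 3 fell in Col1a1+/- and 0 rose by edgeR, where 2.91% of all genes fell and 1.43% rose. DESeq2 called 8 of the 12 lower and 1 higher, where it called 1468 lower and 788 higher of all 18514 genes. That background holds for the DESeq2 counts of the other families too. The median log2 fold change was -1.05, against -0.01 over all genes. The 3 were Klhl21 (-0.74, SE 0.15; adjusted p = 0.0346; 20.5% of its exon length opposite another gene), the muscle gene Klhl31 (-1.40, SE 0.27; adjusted p = 0.0406) and Klhl38 (-1.60, SE 0.35; adjusted p = 0.0422), which shares 65.4% of its exon length with a gene on the opposite strand. Klhl41, which stabilises thin filament proteins of the sarcomere, and Klhl30 had slow slopes of 0.55 (adjusted p = 0.00678) and 0.41 (adjusted p = 0.0141) by edgeR, beside the 0.63 of Klhl34. None of the 12 listed genes was as low as Klhl34. Kbtbd12, a kelch family gene outside the list, was lower, at -2.26 on the log2 scale without passing the test (adjusted p = 0.0706).

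Of 12 other Slco transporter genes, 5 were tested and 1 fell by edgeR (1 by DESeq2), where 2.91% of all genes did. Slco5a1 stood at 23.8, 28.3 and 30 CPM in wild type and 6.2, 11.2 and 4.87 CPM in Col1a1+/- (log2 fold change -1.88, SE 0.29; edgeR adjusted p = 0.0257). Unlike Slco4c1 it was not highest in wild-type replicate 1, and its slope on the fast score passed the test (0.91, SE 0.17; adjusted p = 0.0457). Of the other 4, Slco3a1 (-0.31, adjusted p = 0.155) and Slco4a1 (-0.49, adjusted p = 0.336) had the smallest p.

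Among 7 tested genes of carnosine metabolism and related peptidases, 1 fell by edgeR, where 2.91% of all genes did (3 by DESeq2, where 1468 of 18514 did). This was Carns1, the carnosine synthase gene, which went from 21.3 ± 3.11 to 13.0 ± 1.26 CPM (SD, n = 3 each; log2 fold change -0.71, edgeR adjusted p = 0.0405). The gene shares 45.9% of its exon length with others, in part on the same strand, so its counts are uncertain. Pm20d1, a gene of the same peptidase family as Pm20d2, stood at -1.26 (adjusted p = 0.0913). Carnmt1, which methylates carnosine to anserine, stood at -0.79 (adjusted p = 0.137) and followed both scores by edgeR, with slopes of 0.36 on the slow (adjusted p = 0.0204) and 0.83 on the fast score (adjusted p = 0.0283). The dipeptidase gene Cndp2 stood at 0.08 (adjusted p = 0.665).

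Of 11 genes of Arf6 and its exchange factors, 1 rose (1 by DESeq2), where 1.43% of all genes did. It was Psd3 (log2 fold change 0.51, SE 0.11; edgeR adjusted p = 0.0402), and the closest relatives of Iqsec3 stood at 0.07 (Iqsec1, adjusted p = 0.713) and 0.29 (Iqsec2, adjusted p = 0.359). In the other 3 families edgeR called 0 genes. These were 4 tested tricellular junction genes beside Ildr1 (0 at an unadjusted p below 0.05, 0 by DESeq2), 4 tested Shisa genes (3 and 2) and 9 inositol polyphosphate 5-phosphatase genes (2 and 1). Of all 18514 genes, 2453 were lower and 1775 higher at an unadjusted p below 0.05, so nothing is read from these counts. The smallest p values belonged to Tjp1 (0.16, adjusted p = 0.395) and Lsr (-0.47, adjusted p = 0.527), to Shisa2 (-0.85, adjusted p = 0.0518) and Shisa4 (-0.73, adjusted p = 0.177), and to Inpp5a (-0.35, adjusted p = 0.0877) and Synj2 (-0.60, adjusted p = 0.105). Lsr, the angulin-1 gene, shares 44.7% of its exon length with genes on the opposite strand. None of the genes of these 3 families was 2-fold lower. The genotype calls among relatives ended when wild-type replicate 3 or Col1a1+/- replicate 1 was left out, as did those of all other genes.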

How the data were processed

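Per the file headers, the authors deposited raw counts per gene, 1 file per library, made with featureCounts 2.0.3 over exons of Ensembl release 107 (GRCm39). The submitters' processing notes list HISAT2 2.2.1, SAMtools 1.20 and Trimmomatic 0.39. The recorded command counts each mate of a pair and sets no strand, so 61.8% to 64.2% of counts from 1 to 20 were even and antisense reads were not separated. Multiply mapped reads were left out by default.

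Symbols came from GENCODE M21 by identifier (91.8% matched, 100% of the genes in the lists). Genes were filtered with filterByExpr and libraries scaled with TMM (factors 0.8924 to 1.104). Tests were edgeR 4.0.16 quasi-likelihood F tests in R 4.3.3, two-sided, with Benjamini-Hochberg adjustment over all 18514 genes. Genotype was the only term in the main comparison. A slope fit added the list score (mean log2 CPM, prior count 2) centred within genotype, which leaves 3 residual degrees of freedom. The SE is the absolute estimate divided by the square root of F. DESeq2 1.42.0, other scalings, no filter, a summed score, covariates and leaving out each library were alternatives. The code was tested on simulated data in which the slow fibre genes followed their score with little noise. That is a check of the code and not of the precision of the slopes given here.

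The labels do not say that samples were separate animals, so p-values measure the spread between these samples, which may be technical. The genes and the lists were chosen with earlier results of these data known. The neutrophil and Myh2 slopes, the read ratios with a library left out and the shared muscle list without Myh2 were added after the library values were seen. Named were the 7 genes, fibre genes, in each family the called genes or else those with the 2 smallest p, and for each gene its 3 nearest by profile among genes with a symbol and a mean of at least 1 CPM. Myl2 to Myo5b and Snai3 were named from the threshold. Ibsp, Klhl30, Klhl41, Pm20d1, Carnmt1, Cndp2, Iqsec1, Iqsec2, Myh2, Trp63, Krt10, Sfn and the values of Kbtbd12 were named after their values were seen. The same replicate numbers appear in both genotypes, but same-numbered libraries did not deviate together (correlations over 15370 genes of 0.15, 0.06 and -0.23), so they were not treated as pairs.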

Additional observations from a re-analysis of the deposited data

How the results depend on the processing

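The genotype log2 fold changes of the 7 genes were below 0 under all alternatives except the slow score covariate, where Pm20d2 (0.05) and Klhl34 (0.221) turned above 0. With any 1 library left out they lay between -2.802 (Shisa3) and -1.637 (Slco4c1). Over all genes, 538 were lower and 265 higher. These numbers were 895 and 577 with no filter on low counts (32504 genes tested, against 18514), 1468 and 788 by DESeq2, and 0 and 0 with either fibre score as a covariate (484 and 603 at an unadjusted p below 0.05 with the slow score, 523 and 522 with the fast). With library totals 588 genes were higher. With 1 library left out the lower genes ranged from 0 to 1172 and the higher from 0 to 594, of 19063 to 19225 genes tested. With the replicate block, which pairs libraries that share only a number, 89 were lower and 37 higher, and the log2 fold changes of Slco4c1 and Klhl34 were -2.18 and -2.15.

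The slope fits tested the same numbers of genes in each setting as the genotype fits. Slow score slopes were called for 198 genes, and for 46 with library totals, 1095 with no filter, 652 by DESeq2, 79 with a summed score and 4 to 444 with 1 library left out. Fast score slopes were called for 149 genes, and for 1, 974, 509, 75 and 1 to 312 in the same order. With no filter Pm20d2 passed on the slow score (adjusted p = 0.0396) and Klhl34 and Shisa3 on the fast score (5.65e-04 and 0.0246), and by DESeq2 Klhl34 passed on the fast score (0.0103). With 1 library left out, the slopes of Slco4c1 ranged from -0.349 to 0.432 on the slow, -1.819 to 1.051 on the fast and -0.449 to 0.804 on the neutrophil score, and from -0.496 to 0.476 on Myh2. Those of the other 6 genes were above 0 throughout, from 0.13 (Ildr1) to 0.782 (Inpp5j) on the slow score and from 0.025 (Ildr1) to 2.59 (Klhl34) on the fast score, where Pm20d2 reached 2.404, Iqsec3 1.98 and Shisa3 1.974. Of the 7 genes, 1 to 4 had a slow slope and 2 to 4 a fast slope above 0 at an unadjusted p below 0.05. Over all tested genes, slow slopes of either sign at that p were 1206 of 19123 without wild-type replicate 3. They were 2535 of 19139 without wild-type replicate 2 and 3030 of 32504 with no filter. Fast slopes were 1032 of 18514 with library totals, 2539 of 19222 without Col1a1+/- replicate 2 and 2786 of 32504 with no filter. The slow to fast ratio differed 3.51-fold to 6.25-fold with 1 library left out and 5.37-fold by mean log2 scores. Counts of 10 to 476 reads per library limit the precision for all 7 genes. The causes of these shifts were not tested.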
